A study of Mus musculus with 6 samples.

Results

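The 10 genes described here mark the switch from neuron to glia production in the fetal brain and the first oligodendrocyte precursors: Olig1, Olig2, Sox10, Pdgfra, Egfr, Sox9, Nfia, Nfib, Nfix and Bcan. They were a set of symbols chosen with earlier results of these data known, and were looked up in the 45583 gene rows of the deposited count table. All 10 were present, and all 10 had enough counts to be tested. Read counts came from the cerebral cortex of 6 male fetuses at GD15.5 (gestational day), 1 library per fetus, and the question was which transcripts differ after maternal bisphenol A (BPA, a plastic monomer that can bind estrogen receptors). The 3 BPA fetuses came from dams dosed with BPA at 50 µg/kg over GD10.5 to GD14.5, and the 3 vehicle fetuses from dams given the vehicle, ethanol in peanut oil by the study's methods and peanut oil by the labels. Every fetus was of the Cyp19-EGFP strain and was genotyped as WT and SRY +. By the study's methods, transgenic animals of this FVBN line have a bacterial artificial chromosome with the aromatase gene and a fluorescent reporter. Whether these WT fetuses carried it was not examined. The age is that of the labels and of the study's methods, while its results text gives a later one. The labels name fetuses but no litters, so the p-values measure only the spread between these fetuses. The libraries were made from whole dissected cortex. Fewer cells of a type, less RNA per cell and a different share of ventral tissue in the dissection cannot be told apart.

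As background, radial glia, the stem cells of the embryonic cortex, make neurons first and glia later. Sox9 and the nuclear factor I (NFI) genes Nfia, Nfib and Nfix encode transcription factors that help start the glial program, and Egfr encodes the epidermal growth factor receptor, which marks progenitors turning toward glia. Olig1 and Olig2 encode basic helix-loop-helix factors of the oligodendrocyte lineage. The earliest oligodendrocyte precursors of the forebrain arise ventrally, from progenitors that also make interneurons, and migrate into the cortex, where they carry the platelet-derived growth factor (PDGF) receptor Pdgfra and the transcription factor Sox10. Bcan encodes brevican, a chondroitin sulfate proteoglycan of the brain matrix.

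Total counts per library ran from 3444601 in BPA replicate 3 to 7180835 in vehicle replicate 2, so that 3 counts, the level treated as the floor, corresponded to 0.422 to 0.875 CPM (each gene's scaled share of its library's total count), for counting error only. The tissue label was checked with 14 dorsal pallium (cortical) markers, all of which were tested. Their summed level was 3993 to 4646 CPM in vehicle and 4195 to 4552 CPM in BPA. Dorsal markers do not show how much ventral tissue a dissection included. Vehicle replicate 2 and BPA replicate 2 stood apart in Ttr, a choroid plexus gene, with 195 and 308 CPM against 2.21 to 11.9 CPM in the other 4 libraries.

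Olig2 and Olig1 were the members with the largest differences, and both were lower in BPA by a similar proportion, with a percent change of -26.1 for Olig2 and -26.6 for Olig1. The other oligodendrocyte precursor genes, Pdgfra and Sox10, and the gliogenic genes Sox9, Nfia, Nfib, Nfix, Egfr and Bcan overlapped between the groups. No member passed the study's threshold of 0.1 for the adjusted p, by edgeR's quasi-likelihood test over 13741 genes, and none passed it with DESeq2, limma-voom, edgeR's exact test or the likelihood ratio test. Over all genes, 0 (0%) passed that threshold in the quasi-likelihood test and 0 with limma-voom, against 3 with DESeq2, 2 with the exact test and 4 by likelihood ratio. Unadjusted p-values under 0.05 were found for 2 of the 10 members, both lower in BPA, against 302 genes (2.20%) over the table, of which 162 (1.18%) were lower and 140 (1.02%) higher. BPA libraries lay wholly below vehicle libraries for 1 member, Olig2, and for 489 genes (3.56%) of the table, and wholly above for 0 members and 439 genes (3.19%). The median log2 fold change of the members was -0.06, with 6 lower and 4 higher, beside 0.00157 over all genes tested. Because the members were chosen with results known, their counts beside these shares are a description.

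**Figure D1:**
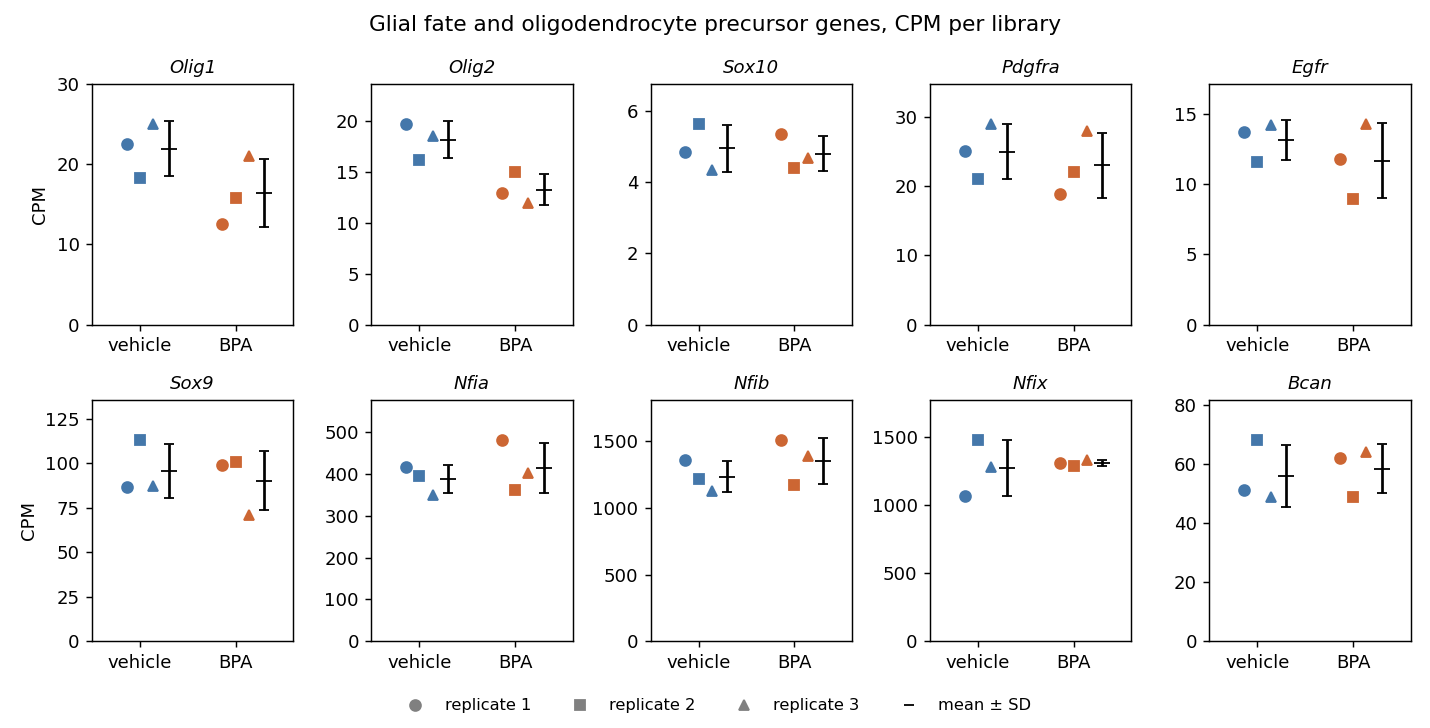
CPM of each of the 10 genes in each library, with vehicle in blue, BPA in orange, marker shapes for replicates, and bars for the mean ± SD of 3 libraries. The y axes start at 0 and differ between panels. Olig2 is the panel in which the groups do not overlap, with 16.2 to 19.7 CPM in vehicle and 11.96 to 14.95 CPM in BPA.

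Olig2 (ENSMUSG00000039830.9, GRCm38 chromosome 16, 91225457 to 91228677, plus strand) was at 19.7, 16.2 and 18.5 CPM in vehicle replicates 1, 2 and 3, and at 12.9, 14.95 and 11.96 CPM in BPA replicates 1, 2 and 3. Every BPA library was therefore below every vehicle library. The mean was 18.1 CPM ± 1.79 (SD, n = 3) in vehicle against 13.3 CPM ± 1.53 (SD, n = 3) in BPA, for a log2 fold change of -0.44 (SE 0.164), with a 95% interval from -0.78 to -0.09. The unadjusted p was 0.0173 and the adjusted p was 1 in edgeR's quasi-likelihood test. An exact two-sided permutation test over the 6 libraries gave p = 0.1, the smallest that 3 libraries against 3 allow. These levels rested on 41 to 134 counts per library, for which counting alone gives a standard error of 0.125 to 0.225 on the log2 scale.

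The promoter of Olig2 is shown because this gene separated the groups. The RefSeq window (GRCm38.p6, chr16:91225300-91225599, plus strand) runs from 250 bases before to 50 bases after the start site. Capitals mark TTGGC, the core of the NFI site, on either strand.
Olig2: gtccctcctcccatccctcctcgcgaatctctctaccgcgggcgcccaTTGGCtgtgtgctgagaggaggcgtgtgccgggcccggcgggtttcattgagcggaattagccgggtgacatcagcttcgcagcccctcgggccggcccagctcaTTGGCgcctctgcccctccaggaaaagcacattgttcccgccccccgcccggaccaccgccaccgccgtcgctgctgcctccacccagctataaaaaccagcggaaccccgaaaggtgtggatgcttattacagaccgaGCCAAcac
The window had 3 such cores, and 46.7% of all 32851 promoter windows had at least 1. The first 2 of the 3 overlap CCAAT boxes on the opposite strand, a motif present in 37.4% of windows. The window held no palindromic estrogen response element (in 0.07% of windows), no single arm of it (GGTCA, in 40.5%), no E-box (CANNTG, in 72.3%) and no SOX core (ACAAAG, in 18.7%), all searched on both strands. A match describes letters and is no evidence of binding, and a motif that was not found says nothing of the factor.

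Olig1 (ENSMUSG00000046160.6, chromosome 16, 91269772 to 91271933, plus strand, a single exon) lies 41094 bases beyond Olig2 on the same strand. It was at 22.5, 18.3 and 25.0 CPM in the vehicle replicates and at 12.6, 15.8 and 21.0 CPM in the BPA replicates. BPA replicate 3 was above vehicle replicate 2, so the groups overlapped, while the other 2 BPA libraries were below all vehicle libraries. The means were 21.9 CPM ± 3.41 (SD, n = 3) and 16.4 CPM ± 4.26 (SD, n = 3), and the log2 fold change was -0.45 (SE 0.188), with a 95% interval from -0.85 to -0.05. Its unadjusted p was 0.0303 (adjusted p = 1, edgeR's quasi-likelihood test). Permuting the 6 libraries in the exact two-sided test gave p = 0.2. The exon of Olig1 shares 157 bases with exons of the antisense lincRNA Gm15966, which had 0 counts in every library.

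Olig1 and Olig2 did not keep a fixed proportion. The CPM ratio of Olig1 to Olig2 was 1.14, 1.13 and 1.35 in vehicle and 0.976, 1.05 and 1.76 in BPA. BPA replicate 3, the shallowest library, had the highest ratio, with the lowest Olig2 level of all and an Olig1 level within the vehicle range. Leaving out 1 library at a time moved the log2 fold change of Olig2 between -0.54 and -0.37 and that of Olig1 between -0.62 and -0.28, always lower in BPA. The unadjusted p was under 0.05 in 3 of these 6 fits for Olig2 and in 2 of 6 for Olig1. Olig1 was at -0.28 (unadjusted p = 0.184) without BPA replicate 1, at -0.35 (unadjusted p = 0.119) without vehicle replicate 3, and at -0.62 (unadjusted p = 0.00452) without BPA replicate 3. The lowest of these adjusted p-values was 0.949 for either gene.

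**Figure D2:**
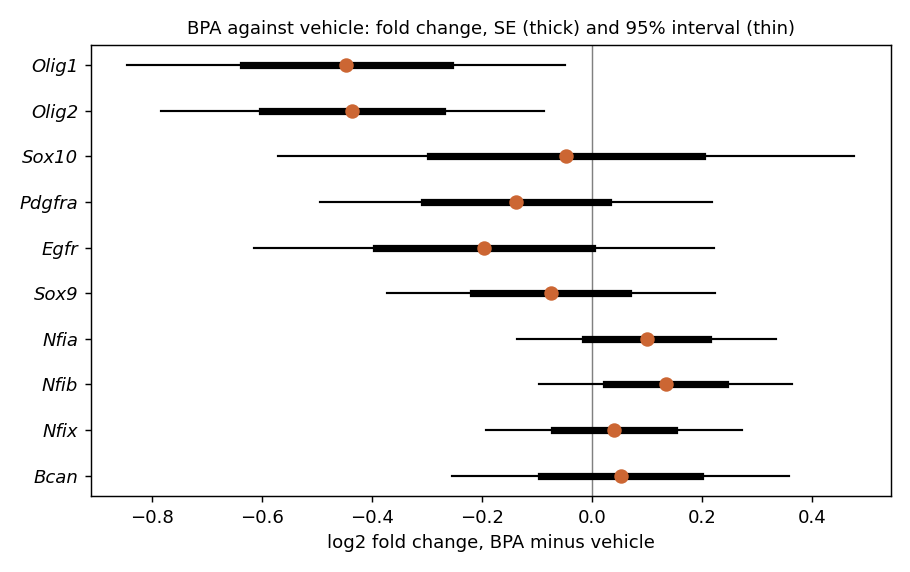
Log2 fold change of BPA against vehicle for each gene on the x axis, from edgeR's quasi-likelihood fit, with the standard error as a thick bar and the 95% interval as a thin bar. The intervals of Olig1 (-0.85 to -0.05) and Olig2 (-0.78 to -0.09) lie below 0, and those of the other 8 genes include 0.

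Markers of the ventral telencephalon were, like Olig2, lower in the BPA group. This list of 19 genes, chosen with earlier results on several of them known, held 18 tested genes, each below its vehicle mean in BPA. The median of their log2 fold changes was -0.30. Of these, 10 had an unadjusted p under 0.05, against 1.18% of all genes tested in that direction, and 14 had BPA libraries wholly below vehicle libraries, against 3.56%. None of the 18 passed the adjusted threshold in edgeR's quasi-likelihood test, but Nkx2-1 did with DESeq2 (adjusted p = 0.00137), edgeR's exact test (adjusted p = 0.000304) and the likelihood ratio test (adjusted p = 0.00038), and Lhx8 with the last of these (adjusted p = 0.0944). Summed over the list, the level was 1364 to 1535 CPM in vehicle and 1168 to 1294 CPM in BPA, and no gene of the list was at or below the floor in all libraries. Nkx2-1, which specifies the medial ganglionic eminence, had a vehicle mean of 35.9 CPM ± 8.79 (SD, n = 3) and a BPA mean of 14.8 CPM ± 5.48 (SD, n = 3). The log2 fold change of Nkx2-1 was -1.25 (SE 0.220, adjusted p = 0.251, unadjusted p = 3.65e-05, edgeR's quasi-likelihood test). The part of these ventral markers in the Olig1 and Olig2 differences was not tested, and the amount of ventral tissue in each dissection was not measured.

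By library, the mean of the ventral list after centering of each gene on its 6-library mean log2 CPM was 0.308, 0.292 and 0.075 in vehicle and -0.254, -0.055 and -0.366 in BPA. Olig2 on the same scale was at 0.344, 0.065 and 0.257 in vehicle and at -0.257, -0.047 and -0.361 in BPA. In the BPA libraries the values of Olig2 and of the list lay within 0.01 of each other, whereas in vehicle replicates 2 and 3 they lay apart. Counting alone gives Olig2 a standard error of 0.125 to 0.225 on the log2 scale, so closeness of 0.01 describes these values only. Olig1 was at -0.563, -0.243 and 0.163 in BPA, so that BPA replicate 3 was high for Olig1 and lowest for the ventral list. The dorsal pallium list, with 0 of 14 genes at an unadjusted p under 0.05 and a median log2 fold change of 0.08, ran from -0.204 to 0.180 in vehicle and from -0.108 to 0.145 in BPA.

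**Figure D3:**
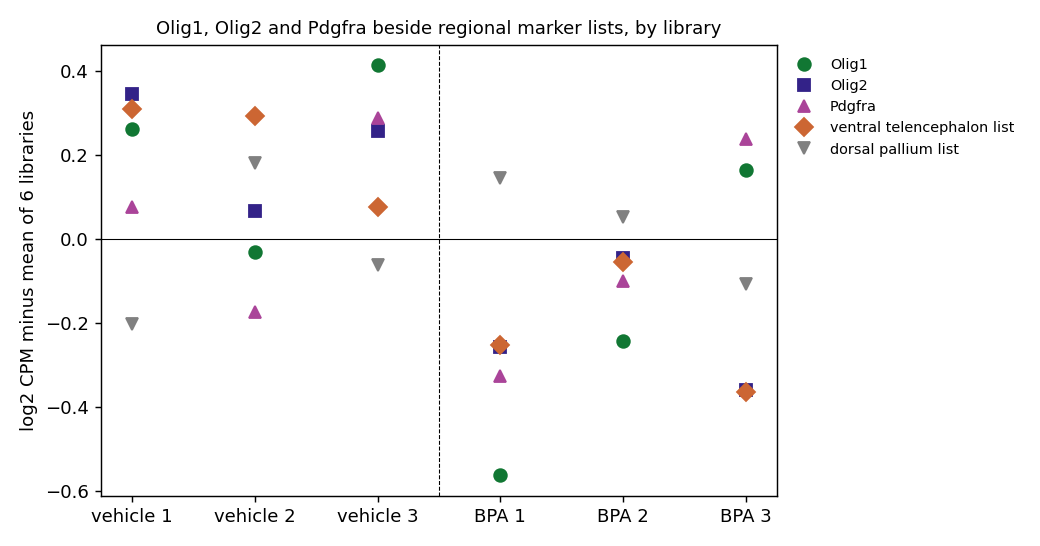
Centered log2 CPM (y axis) of Olig1, Olig2 and Pdgfra in each library (x axis), beside the mean of the ventral telencephalon list (18 tested genes) and the dorsal pallium list (14 genes). Olig2 and the ventral list are above 0 in the 3 vehicle libraries and below 0 in the 3 BPA libraries, while Olig1 and Pdgfra are above 0 in BPA 3.

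Pdgfra, the PDGF receptor through which oligodendrocyte precursors receive growth signals (ENSMUSG00000029231.15, chromosome 5, 75152292 to 75198215, plus strand), was at 25.0, 21.0 and 29.0 CPM in vehicle and at 18.8, 22.1 and 28.0 CPM in BPA. The groups overlapped, with BPA replicate 1 lowest and vehicle replicate 3 highest. Means were 25.0 CPM ± 4.01 (SD, n = 3) and 23.0 CPM ± 4.65 (SD, n = 3), and the log2 fold change was -0.14 (SE 0.168), with a 95% interval from -0.50 to 0.22 (unadjusted p = 0.422, adjusted p = 1, edgeR's quasi-likelihood test). Leaving out 1 library moved it from -0.28 without BPA replicate 3 to -0.0078 without BPA replicate 1, and it was -0.25 without vehicle replicate 2 and -0.026 without vehicle replicate 3. Cells of the meninges also express Pdgfra. The 13 markers of meninges and pericytes summed to 202 to 338 CPM in vehicle and 216 to 305 CPM in BPA, with vehicle replicate 3 highest and BPA replicate 2 next, and their part in the Pdgfra values was not tested. Of the 10 tested markers of that list, 0 had an unadjusted p under 0.05.

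The ligands were also measured. Pdgfa, the main ligand of this receptor in the brain, had 9.68 CPM ± 1.66 (SD, n = 3) in vehicle against 8.13 CPM ± 0.998 (SD, n = 3) in BPA, and Pdgfc, another of its ligands, 8.63 CPM ± 1.66 and 7.01 CPM ± 1.40. Their log2 fold changes were -0.28 (SE 0.209) and -0.27 (SE 0.228). Pdgfb was at -0.08 (SE 0.2002), and Pdgfrb, the receptor of pericytes, at -0.09 (SE 0.127). All 5 tested genes of the PDGF list, Pdgfra included, were below 0, with a median of -0.14, but 0 of the 5 had an unadjusted p under 0.05. The 6 listed genes summed to 87.7 to 95.6 CPM in vehicle and 79.1 to 85.8 CPM in BPA. Pdgfd had 0 to 4 counts per library and was not tested.

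The promoter windows of the receptor genes Pdgfra and Egfr are shown for comparison with Olig2. In the Pdgfra window (RefSeq, GRCm38.p6, chr5:75152001-75152300, plus strand), capitals mark the E-box CANNTG, the motif class that OLIG factors recognize. In the Egfr window (chr11:16751953-16752252, plus strand), capitals mark TTGGC as above.
Pdgfra: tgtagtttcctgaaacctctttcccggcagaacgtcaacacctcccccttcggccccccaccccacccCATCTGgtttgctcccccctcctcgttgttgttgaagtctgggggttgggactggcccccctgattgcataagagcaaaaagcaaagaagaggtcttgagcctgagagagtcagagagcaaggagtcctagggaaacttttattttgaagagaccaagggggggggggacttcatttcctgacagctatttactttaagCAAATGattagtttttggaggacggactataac
Egfr: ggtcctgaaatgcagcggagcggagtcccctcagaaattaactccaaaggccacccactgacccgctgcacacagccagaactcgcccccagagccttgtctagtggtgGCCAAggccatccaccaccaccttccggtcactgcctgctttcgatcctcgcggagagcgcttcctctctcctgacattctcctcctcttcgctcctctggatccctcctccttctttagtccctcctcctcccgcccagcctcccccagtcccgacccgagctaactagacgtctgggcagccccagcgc
The Pdgfra window had 2 E-boxes and no TTGGC. The Egfr window had 1 TTGGC, 2 GGTCA and no E-box. RefSeq windows were matched for 6 of the 10 genes (Olig2, Pdgfra, Egfr, Nfia, Nfix and Bcan), with 4 windows for Nfix. None of these 9 windows held a palindromic estrogen response element.

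Sox10, which drives later oligodendrocyte differentiation (ENSMUSG00000033006.10, chromosome 15, 79154908 to 79165240, minus strand), had the fewest counts of the members, 16 to 40 per library. Its levels were 4.85, 5.63 and 4.34 CPM in vehicle and 5.34, 4.39 and 4.67 CPM in BPA, with all BPA libraries inside the vehicle range. The log2 fold change was -0.05 (SE 0.247), and the 95% interval from -0.57 to 0.48 is wide enough to include the change estimated for Olig2. A difference of that size was thus not excluded for Sox10. Nor was it excluded for Pdgfra and Egfr, whose 95% intervals reach down to -0.50 and -0.62. Sox8, the close relative of Sox10 that is also present in radial glia, had 58.1 CPM ± 5.20 (SD, n = 3) in vehicle against 50.6 CPM ± 2.36 (SD, n = 3) in BPA, without overlap, and its log2 fold change was -0.19 (SE 0.114, unadjusted p = 0.109).

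Egfr (ENSMUSG00000020122.16, chromosome 11, 16752203 to 16918158, plus strand) was at 13.7, 11.5 and 14.2 CPM in vehicle and at 11.8, 8.94 and 14.3 CPM in BPA. BPA replicate 2 was the lowest library and BPA replicate 3 the highest. The log2 fold change was -0.20 (SE 0.197), with a 95% interval from -0.62 to 0.22 (unadjusted p = 0.333, edgeR's quasi-likelihood test). It ranged from -0.34 without BPA replicate 3 to -0.030 without BPA replicate 2 when 1 library was left out. Among the ligands of this receptor, Tgfa had 27.8 CPM ± 5.38 (SD, n = 3) in vehicle against 22.6 CPM ± 8.54 (SD, n = 3) in BPA, or -0.34 (SE 0.213) on the log2 scale. Hbegf was at 9.83 and 10.48 CPM, and Egf at 2.03 and 2.54 CPM. Areg, Ereg, Btc and Epgn had at most 2 counts in any library, which does not exceed the floor of 3 counts. The receptor Erbb2 averaged 16.7 CPM ± 1.59 (SD, n = 3) and 20.4 CPM ± 4.31 (SD, n = 3), a log2 fold change of 0.31 (SE 0.169, unadjusted p = 0.0851), whereas Erbb4, the neuregulin receptor of interneurons, was at 124 and 122 CPM. Of 12 tested genes of this list, 0 had an unadjusted p under 0.05.

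Sox9 (ENSMUSG00000000567.5, chromosome 11, 112782224 to 112787760, plus strand), a factor of radial glia and astrocytes, was at 86.8, 113 and 87.4 CPM in vehicle and at 98.8, 101 and 71.2 CPM in BPA. Only BPA replicate 3 was below the vehicle range. Its log2 fold change was -0.08 (SE 0.140), with a 95% interval from -0.37 to 0.22. The direction turned to 0.07 without vehicle replicate 2 and to 0.06 without BPA replicate 3.

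The NFI genes were the most abundant members and had log2 fold changes near 0. Nfia (ENSMUSG00000028565.18, chromosome 4, 97772734 to 98118874, plus strand) was at 418, 394 and 350 CPM in vehicle and at 480, 362 and 403 CPM in BPA, a log2 fold change of 0.10 (SE 0.111), with a 95% interval from -0.14 to 0.34. Nfib (ENSMUSG00000008575.17, chromosome 4, 82290173 to 82705750, minus strand) was at 1359, 1217 and 1129 CPM in vehicle and at 1508, 1170 and 1388 CPM in BPA, a log2 fold change of 0.13 (SE 0.109), with a 95% interval from -0.10 to 0.36. For both genes BPA replicate 1 was the highest library and vehicle replicate 3 the lowest. With 1 library left out, Nfib ranged from 0.049 without BPA replicate 1 to 0.23 without BPA replicate 2. The CPM ratio of Nfia over Nfib stayed between 0.290 and 0.324 in all 6 libraries, so that the pair varied together.

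Nfix (ENSMUSG00000001911.16, chromosome 8, 84699876 to 84800344, minus strand) had a different order of libraries. It was at 1065, 1472 and 1274 CPM in vehicle, a spread of 204 CPM (SD, n = 3), and at 1305, 1282 and 1330 CPM in BPA, a spread of 24.1 CPM (SD, n = 3). All 3 BPA libraries were inside the vehicle range. The log2 fold change was 0.04 (SE 0.110), with a 95% interval from -0.19 to 0.27. The intervals of all 3 NFI genes exclude a reduction of the size estimated for Olig2. Nfic, the remaining NFI gene, averaged 71.4 and 69.1 CPM, and its log2 fold change was -0.04 (SE 0.131).

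Bcan (ENSMUSG00000004892.13, chromosome 3, 87987531 to 88000230, minus strand) was at 51.0, 68.0 and 48.7 CPM in vehicle and at 62.2, 48.9 and 64.2 CPM in BPA, all 3 inside the vehicle range. Its log2 fold change was 0.05 (SE 0.144), with a 95% interval from -0.25 to 0.36, and the sign turned in 4 of the 6 fits that left out 1 library. The other lecticans, the proteoglycan family of Bcan, were Ncan at 667 and 649 CPM, Vcan at 405 and 428 CPM, and Acan at 1 to 7 counts per library. The tenascins that bind them, Tnr and Tnc, had log2 fold changes of 0.02 (SE 0.134) and 0.10 (SE 0.124). Hapln3, a link protein gene, was at -0.27 (SE 0.325). Of 6 tested genes of this list, 0 had an unadjusted p under 0.05.

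Levels were compared between genes only as CPM per kilobase of exon, using the union of annotated exons, which understates a gene whose longest annotated ends are not used. In vehicle, Nfix was highest at 173 CPM per kilobase, followed by Nfib at 82.6, Nfia at 35.6, Sox9 at 23.1, Bcan at 13.8, Olig1 at 10.2, Olig2 at 7.17, Pdgfra at 2.49, Sox10 at 1.62 and Egfr at 1.16. No 2 neighbors in this order overlapped among the 3 vehicle libraries. The gliogenic transcription factors were all above the oligodendrocyte precursor genes per length in these libraries.

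Genes of the same programs were read from 17 lists that held 202 further genes, of which 159 were tested. The lists share some genes. Of the 159, 12 had an unadjusted p under 0.05, against 2.2% of all genes tested. In BPA, 11 of the 12 were lower and 1 was higher, against 1.18% and 1.02% of all genes tested. On the ventral list were 10 of the 12. The other 2 were Tyk2, a Janus kinase, and Hba-a1, a hemoglobin gene. In the list of oligodendrocyte precursor genes, 13 of 18 were tested, with a median log2 fold change of -0.02. Of the 13, 1 had an unadjusted p under 0.05, lower in BPA. Cspg4, the NG2 proteoglycan of precursors and pericytes, was at 19.7 and 18.4 CPM, and Gpr17, of committed precursors, at 9.03 and 10.4 CPM, and both overlapped.

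Markers of myelinating oligodendrocytes were mostly scarce. Of 14, 7 were tested, Mobp and Opalin were at 0 in every library, and Nkx6-2 and Enpp6 did not exceed 3 counts. The list summed to 76.3 to 92.3 CPM in vehicle and 82.7 to 86.1 CPM in BPA, with Mbp at 33.4 and 33.9 CPM, Cnp at 13.3 and 12.01 CPM and Mog at 11.6 and 13.2 CPM. The smallest unadjusted p-values of this list belonged to Ugt8a and Cnp, with log2 fold changes of -0.28 (SE 0.290) and -0.15 (SE 0.171).

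The astrocyte list had 15 of 18 genes tested, with a median log2 fold change of -0.03, and 0 had an unadjusted p under 0.05. Mature astrocyte genes were near the floor, with Gfap at 5 to 20 counts, Aqp4 at 6 to 14 and S100b at 1 to 3 counts per library. Genes that astrocytes share with radial glia were abundant, such as the glutamate transporter Slc1a3 at 168 and 174 CPM and Sox2 at 143 and 123 CPM. Sox2 had a log2 fold change of -0.21 (SE 0.106, unadjusted p = 0.0677), and Fgfr3 0.23 (SE 0.155). In the radial glia list, 0 of 13 genes had an unadjusted p under 0.05 and the median was -0.0025.

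Upstream of the glial program, Notch effectors and cytokine signaling were examined. Of 17 tested transcription factor and Notch genes, 0 had an unadjusted p under 0.05. Hes5, a Notch target that maintains radial glia, had the smallest, at 16.1 CPM ± 1.505 (SD, n = 3) in vehicle against 12.7 CPM ± 2.46 (SD, n = 3) in BPA and a log2 fold change of -0.34 (SE 0.180, unadjusted p = 0.0770). Of 12 tested cytokine and JAK-STAT genes, Tyk2 was at 22.5 CPM ± 1.18 (SD, n = 3) and 27.5 CPM ± 3.14 (SD, n = 3), without overlap, with a log2 fold change of 0.30 (SE 0.137, unadjusted p = 0.0437, adjusted p = 1). Lifr, a receptor subunit for gliogenic cytokines, was at 0.22 (SE 0.164), and Stat3, which those cytokines activate, at -0.08 (SE 0.117). The ligands Lif and Cntf had 0 or 1 count per library. In the BMP list, 0 of 10 tested genes had an unadjusted p under 0.05, and the smallest belonged to Chrd at 0.25 (SE 0.178) and Smad4 at -0.12 (SE 0.0943), the latter without overlap of the groups.

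**Figure D4:**
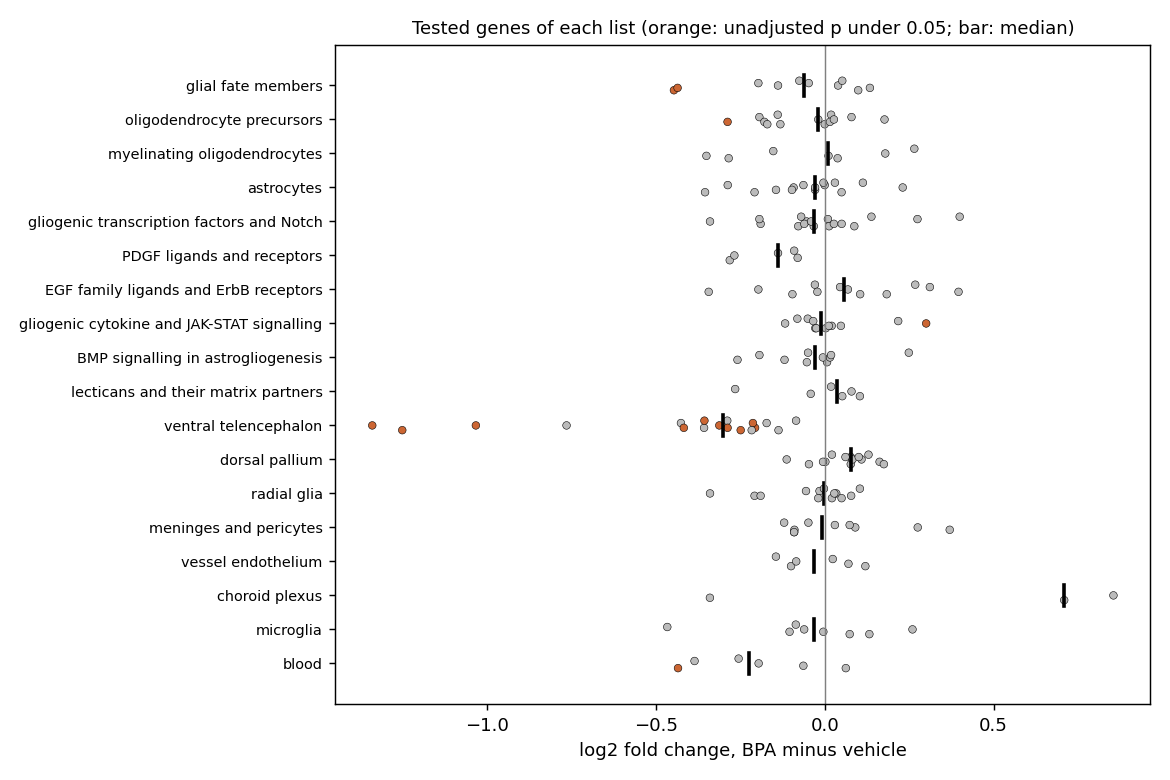
Log2 fold change of BPA against vehicle (x axis) for every tested gene of each list (rows), with orange points for an unadjusted p under 0.05 and a black bar for the list's median. The ventral telencephalon list holds 10 of the 12 orange points outside the glial fate members, each gene counted once although lists share genes, and its median is -0.30.

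Other cell types did not separate the groups. Summed levels of 8 microglia markers were 52.5 to 66.1 CPM in vehicle and 57.2 to 63.4 CPM in BPA, and those of 8 endothelial markers 142 to 150 and 136 to 151 CPM. The 7 choroid plexus markers summed to 11.4 to 222 CPM in vehicle and 14.3 to 352 CPM in BPA, with 3 genes tested. The 8 blood genes summed to 284 to 598 CPM and 333 to 414 CPM, and of the 6 tested Hba-a1 was at -0.43 (SE 0.1998, unadjusted p = 0.0452). Hbb-bs was at -0.20 (SE 0.204), Kdr at -0.14 (SE 0.149), Cldn5 at -0.10 (SE 0.148), Tmem119 at -0.47 (SE 0.358), Trem2 at 0.26 (SE 0.322), Clic6 at 0.86 (SE 0.757), Otx2 at -0.34 (SE 0.457), Col3a1 at 0.37 (SE 0.428) and Rgs5 at -0.09 (SE 0.109). The dorsal pallium genes with the smallest unadjusted p were Neurog2 at 0.17 (SE 0.131) and Bcl11b at -0.11 (SE 0.0986), and beside Nkx2-1 the ventral list was led by Lhx8 at -1.34 (SE 0.314).

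The 3 genes that lay closest to Olig2 across the 6 libraries were Fam163b, Endod1 and E2f2, with root mean square differences of centered log2 CPM of 0.073, 0.083 and 0.083, where the median over 10009 genes averaging at least 10 CPM was 0.286. Among the members, Nfia and Nfib were the closest pair at 0.050, and Olig1 lay closer to Pdgfra, at 0.160, than to Olig2, at 0.273. With 6 libraries of unequal depth and 41 to 134 counts for Olig2, these distances describe the libraries only.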

How the data were processed

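The deposited values were whole-number read counts for each gene, unnormalized by the authors, in 6 cortex libraries. Samples were grouped by the treatment in the labels, with replicates numbered in accession order. Per the study's methods and processing notes, strand-specific libraries were sequenced as short single-end reads, aligned with TopHat2 2.0.14 to GRCm38 and counted with featureCounts on GENCODE models. Use of strand and of reads with several alignments is not stated. Of the members, Olig1 and Pdgfra shared the most 50-base transcript words with other genes, 5.11% and 4.93%, both with overlapping antisense genes.

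Counts were analysed with edgeR 4.0.16 in R 4.3.3: filterByExpr (minimum count 10, minimum total 15, 13741 genes kept), TMM scaling, quasi-likelihood test of BPA against vehicle without covariates, Benjamini-Hochberg adjustment over all genes tested, and a threshold of 0.1. Standard errors are those implied by the test statistic. Centered log2 CPM used a prior count of 2. Alternatives were DESeq2 1.42.0, limma-voom (limma 3.58.1), edgeR's exact and likelihood ratio tests, other scalings, other filters and omission of each library. Coordinates, exon lengths and overlaps came from GENCODE M21 (GRCm38) and promoters from RefSeq. The fit was tested on simulated data.

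The members and all lists were chosen with earlier results of these data known. Named genes were all members, the 2 genes of each list with the smallest unadjusted p, ligand, receptor and matrix partners of members, the 3 genes closest to Olig2, and markers that define another cell type. Gpr17, Cspg4, Sox8, Nfic, Stat3, Erbb2 and other genes outside that rule were named for their roles after their values were seen. Some genes of the lists are counted but not reported here by name.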

Additional observations from a re-analysis of the deposited data

How the results depend on the processing

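Across 9 other settings of test, scaling and filter, the members' directions did not change, and 2 members had an unadjusted p under 0.05 in each. Log2 fold changes over these ran from -0.44 to -0.43 for Olig2 and from -0.47 to -0.44 for Olig1, and no member passed an adjusted p of 0.1 in any setting. Sox10 could not be tested under the filter of at least 10 CPM in 3 libraries. Leaving out 1 library gave 0 to 2 members with an unadjusted p under 0.05. It was 0 without vehicle replicate 1 or BPA replicate 1, and 1 without vehicle replicate 3 or BPA replicate 3, and without BPA replicate 2 the 2 were Olig2 and Nfib (0.23). The sign turned in 1 of these 6 fits for Nfix (range -0.073 to 0.16, negative without vehicle replicate 1) and Nfia (-0.021 to 0.19, negative without BPA replicate 1), in 2 for Sox9 (-0.16 to 0.066, positive without vehicle replicate 2 or BPA replicate 3) and Sox10 (-0.14 to 0.061, positive without replicate 2 of either group), and in 4 for Bcan (-0.035 to 0.22, positive only without replicate 2 of either group). Without vehicle replicate 2 and BPA replicate 2 together, an alternative chosen after seeing the data because both were high in Ttr, 3 members had an unadjusted p under 0.05 (Olig1 at -0.56, Olig2 at -0.61 and Bcan at 0.34) and Sox10 was at 0.14.

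Over all genes, the 0 past an adjusted p of 0.1 became 3 with DESeq2, 4 with the likelihood ratio test, 2 with edgeR's exact test, 19 without a filter, 15 without both Ttr-high libraries and 0 to 1 on leaving out 1 library. The 302 at an unadjusted p under 0.05 became 126 with DESeq2, 620 without a filter, 162 at the 10 CPM filter, 954 without both Ttr-high libraries and 194 to 708 on leaving out 1. Of the related genes, the 0 called became 1 with DESeq2 and with the exact test (Nkx2-1), 2 with the likelihood ratio test (Nkx2-1 and Lhx8), 3 without a filter (these and Ttr), 4 without both Ttr-high libraries (these 3 and Hba-a1) and 0 to 1 on leaving out 1 (Nkx2-1). The 12 at an unadjusted p under 0.05 became 7 with DESeq2, 23 without both Ttr-high libraries and 6 to 19 on leaving out 1. The cause was not tested. No paired analysis was possible because the replicate numbers follow accession order and pair no samples. Depth limits Sox10 most, at 16 to 40 counts per library.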
